A study of Caenorhabditis elegans with 4 samples.

Results

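The miRNAs described here are miR-34-5p, miR-228-5p, miR-235-3p and miR-236-3p, 4 of the 66 mature miRNAs listed for *C. elegans* worms at day 5 of adulthood. They were picked because each is the worm form of a family that is also found in insects and vertebrates. miR-34-5p belongs to the miR-34 family, and miR-228-5p to the family of vertebrate miR-183 and insect miR-263. miR-235-3p is the worm form of miR-92, and miR-236-3p that of insect miR-8 and vertebrate miR-200. The rule uses these families and not the levels in the co-immunoprecipitations (co-IPs), although earlier results of these data were known when it was set. All 4 were found in the table. One strain carried FLAG::GFP::ALG-1 (PQ530) and the other FLAG::RFP::ALG-2 (PQ582), in each case with the tag added to the endogenous gene by genome editing. Worms of both strains were grown on OP50 bacteria, were collected without special treatment and were cleared of eggs and larvae, and ALG-1 or ALG-2 was recovered with an anti-FLAG antibody. Small RNAs from 2 independent preparations of each strain were sequenced, which gave 2 ALG-1 and 2 ALG-2 libraries, called A and B here in the order of the columns.

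A miRNA is a short RNA that is loaded into an Argonaute protein and guides it to messenger RNAs, mainly through the seed, the bases near its 5′ end. ALG-1 and ALG-2 are the main Argonautes of the miRNA pathway in *C. elegans*. miR-34 is best known in mammals as a family induced by p53, and in worms it accumulates in dauer larvae and in aging adults. miR-228 is expressed in worm glia and has been linked to adult lifespan, while its relatives act in sensory organs of flies and vertebrates. miR-235 holds blast cells quiescent in starved worm larvae, and its mammalian relative miR-92a is part of an oncogenic miRNA cluster. The relatives of miR-236 are miR-8, a promoter of body growth in flies, and the mammalian miR-200 family, which restrains the epithelial to mesenchymal transition.

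Each of the 4 miRNAs comes from a gene of its own. In the RefSeq annotation of WBcel235, *mir-228* is on chromosome IV (5562025-5562122), *mir-235* on chromosome I (6162291-6162387), *mir-34* on chromosome X (2969752-2969848) and *mir-236* on chromosome II (7030180-7030277). No other annotated gene overlaps any of the 4 loci. The next miRNA gene is at least 4.30 kb away, *mir-790* in the case of *mir-228*. *mir-235* is separated from *mir-1* by 10.3 kb. *mir-236* is the closest of the 4 to a coding gene, with 23 bases between it and *znf-598*, whereas *mir-34* is separated from *gbb-1* by 1557 bases.

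Values are RPM, the reads of a miRNA per 1000000 reads of its library. Library totals were inferred from the values, as the smallest totals that gave whole reads. By these the smallest total was 6428905 reads and the largest 25703472. Percentages of a library here are shares of these totals. Whether the totals include reads other than those assigned to miRNAs was not checked. The least read of the 16 values of the 4 miRNAs, miR-236-3p in ALG-1 library B, then stood on 2783 reads. Its relative counting error was 1.90%, and counting errors cover the sampling of reads only. Summed, the values of the 66 miRNAs made up 99.3% to 99.5% of each library. In this sum miR-44-3p and miR-45-3p were listed at identical values in every library. The RPM of a miRNA thus also depends on how much of the library the abundant ones take. The paper left miRNAs with few reads out of its enrichment analysis, and the lowest of the 66, miR-795-5p, had a mean of 251 RPM. Ranks and medians here therefore hold among the listed miRNAs only. No input RNA or untagged strain was analysed here, and messenger RNA was not measured, so the tagged genes cannot be checked in these libraries. Because whole worms were used, a lower level in a co-IP cannot be told apart from fewer cells that make the miRNA, less of it per cell, or less of that Argonaute in those cells. The libraries of a strain are independent preparations, and p-values rest on the spread between these. In the limma fits, the spread of each miRNA was drawn toward that of the other listed miRNAs. The SEs, intervals and p-values from limma therefore do not reflect the spread of that miRNA alone.

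The 4 conserved miRNAs spanned a wide range of abundance, and their order was the same in every library. miR-228-5p was the highest, followed by miR-235-3p, miR-34-5p and miR-236-3p in 4 of 4 libraries. Their means over the 4 libraries were 31483, 11033, 2372 and 999 RPM, which placed them 9th, 21st, 36th and 47th of the 66 miRNAs. The steps in this order were not all larger than the spread between libraries. miR-228-5p lay above miR-235-3p without overlap, since its lowest value was 28090 RPM and the highest value of miR-235-3p was 15877 RPM. The values of miR-235-3p reached down to 2277 RPM and those of miR-34-5p up to 3572 RPM, so these 2 overlapped across libraries. miR-34-5p and miR-236-3p also overlapped, as miR-236-3p reached 1861 RPM in ALG-2 library A and miR-34-5p had 1813 RPM in ALG-1 library B.

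**Figure D1:**
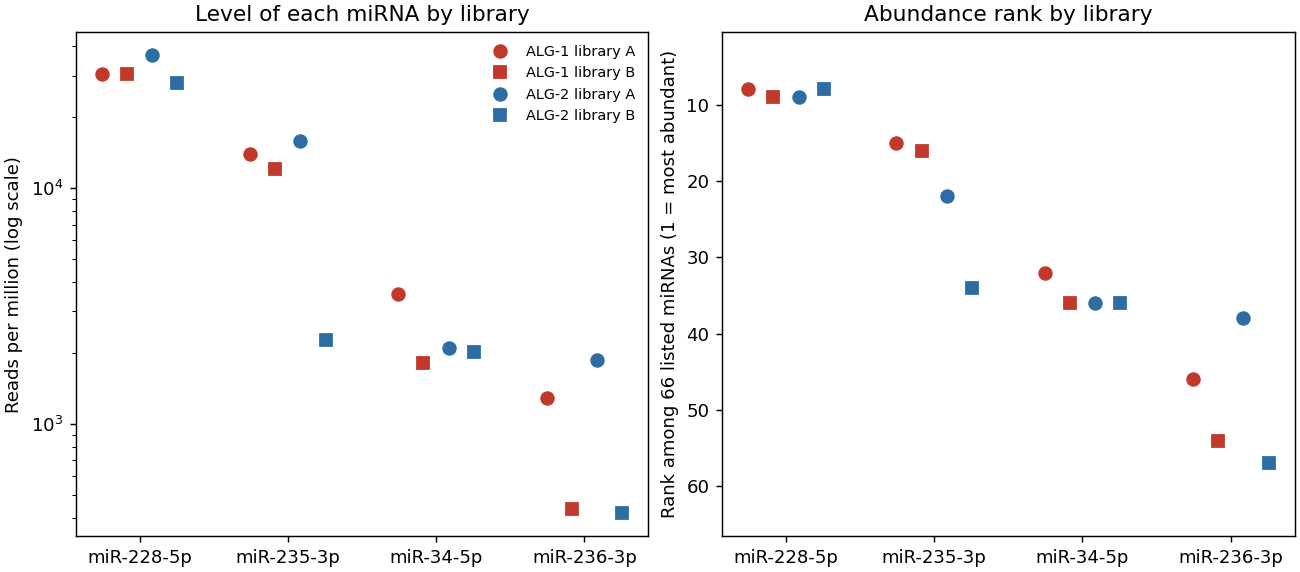
Left, RPM (log scale) of each of the 4 miRNAs in each library, with ALG-1 libraries in red, ALG-2 libraries in blue, library A as circles and library B as squares. Right, the rank of the same miRNAs among the 66 listed, with 1 as the most abundant. miR-228-5p stayed at rank 8 or 9, whereas miR-235-3p fell to rank 34 in ALG-2 library B and miR-236-3p moved between ranks 38 and 57.

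miR-228-5p, the relative of miR-183 and miR-263, took a similar share of the libraries of both Argonautes. It had 30666 and 30470 RPM in the ALG-1 libraries, and 36705 and 28090 RPM in the ALG-2 libraries, A before B here and in what follows. The ALG-1 values lay between the ALG-2 values, so the groups overlapped. It took 2.81% to 3.67% of a library, and its level was 9.14 to 13.1 times that of the median miRNA. The mean ± SD was 30568 ± 138 RPM over the ALG-1 libraries and 32397 ± 6092 RPM over the ALG-2 libraries (n = 2 in each). The log2 ratio of ALG-1 over ALG-2 was -0.07 ± 0.43 (SE, limma adjusted p = 0.902), with a 95% interval from -1.12 to 0.98. The interval leaves room for a difference of up to 2.17-fold toward ALG-2 or 1.97-fold toward ALG-1, so equal loading was not shown. Over the 4 libraries its highest value was 1.31 times its lowest, the 5th narrowest range of the 66 miRNAs, for which the median was 3.64. It was one of 7 miRNAs whose range stayed under 1.5-fold. The 7 include miR-44-3p and miR-45-3p, which had identical values in every library. Their range of 1.28 was narrower than that of miR-228-5p, so both count in its rank.

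miR-235-3p, the relative of miR-92, was abundant in 3 of the 4 libraries and low in the fourth. It had 13968 and 12010 RPM in the ALG-1 libraries, and 15877 and 2277 RPM in the ALG-2 libraries. ALG-2 library A was therefore above both ALG-1 libraries and ALG-2 library B was below both. The mean ± SD was 12989 ± 1385 RPM over the ALG-1 libraries and 9077 ± 9616 RPM over the ALG-2 libraries (n = 2 in each), so that the SD of the ALG-2 group exceeded its mean. Compared to ALG-2 library A, the ratios of ALG-1 over ALG-2 were 0.880 and 0.756. Compared to ALG-2 library B, they were 6.13 and 5.27. The log2 ratio of 1.11 ± 0.93 (SE) was not significant (limma adjusted p = 0.511), with a 95% interval from -1.16 to 3.38. Without ALG-2 library B it turned to -0.29, and without ALG-2 library A it was 2.51 (limma adjusted p = 0.0672). The direction of this miRNA thus rested on 1 library, and the value of that library stood on 58538 reads.

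miR-34-5p was of middle abundance and was steady in all libraries except one. It had 3572 and 1813 RPM in the ALG-1 libraries, and 2095 and 2010 RPM in the ALG-2 libraries. Both ALG-2 values lay between the ALG-1 values, and ALG-1 library A alone was high. The mean ± SD was 2692 ± 1244 RPM over the ALG-1 libraries and 2052 ± 60.1 RPM over the ALG-2 libraries (n = 2 in each). The log2 ratio was 0.31 ± 0.57 (SE, limma adjusted p = 0.796), with a 95% interval from -1.07 to 1.69. Compared to the ALG-2 libraries, ALG-1 library A gave ratios of 1.70 and 1.78, and ALG-1 library B gave 0.865 and 0.902. The log2 ratio became -0.18 without ALG-1 library A and 0.80 without ALG-1 library B. At rank 32 to 36 of 66, its level was 0.668 to 1.06 times that of the median miRNA.

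miR-236-3p, the worm relative of miR-8 and miR-200, was the least abundant of the 4, and its libraries differed widely in both co-IPs. It had 1282 and 433 RPM in the ALG-1 libraries, and 1861 and 418 RPM in the ALG-2 libraries. Library A was the higher one in both co-IPs, and the values of the B libraries were close to each other. The mean ± SD was 858 ± 601 RPM over the ALG-1 libraries and 1139 ± 1020 RPM over the ALG-2 libraries (n = 2 in each). The log2 ratio was -0.24 ± 0.92 (SE, limma adjusted p = 0.879), with a 95% interval from -2.50 to 2.02. Between the A libraries ALG-2 was higher (ratio of ALG-1 over ALG-2 0.689), whereas between the B libraries the ratio was 1.04. With the libraries crossed, the ratios were 3.07 (ALG-1 library A over ALG-2 library B) and 0.233 (ALG-1 library B over ALG-2 library A). The sign changed when a library was left out, to 0.54 without ALG-1 library B and to 0.83 without ALG-2 library A, and it was -1.32 without ALG-2 library B.

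To ask whether any of the 4 preferred one Argonaute, 2 criteria were applied to the whole table. By the first, each of the 4 ratios of one ALG-1 library to one ALG-2 library had to pass 1.5-fold the same way, which adapts the criterion of the study to columns without replicate numbers. With this requirement 13.6% of the 66 miRNAs were on the ALG-1 side and 16.7% on the ALG-2 side, and 0 of the 4 conserved miRNAs passed in either direction. By the second, limma on log2(RPM + 1) with p-values adjusted for all 66 miRNAs by the Benjamini-Hochberg method and called below 0.05, 0% of the miRNAs were higher with ALG-1 and 1.52% with ALG-2, again with 0 of the 4. Before adjustment, 10.6% and 15.2% of all miRNAs had a limma p-value below 0.05, and none of the 4 did, the lowest being 0.279 for miR-235-3p. With so few calls in the table, 0 of 4 is close to the background by limma. By the 1.5-fold criterion most miRNAs of the table did not pass either, and 4 miRNAs are too few to be told apart from that share. The ALG-1 and ALG-2 values did not overlap for 53.0% of all miRNAs, while they overlapped for 4 of the 4. Whether the 4 differ from the table in this was not tested, and 4 miRNAs are few for such a comparison.

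**Figure D2:**
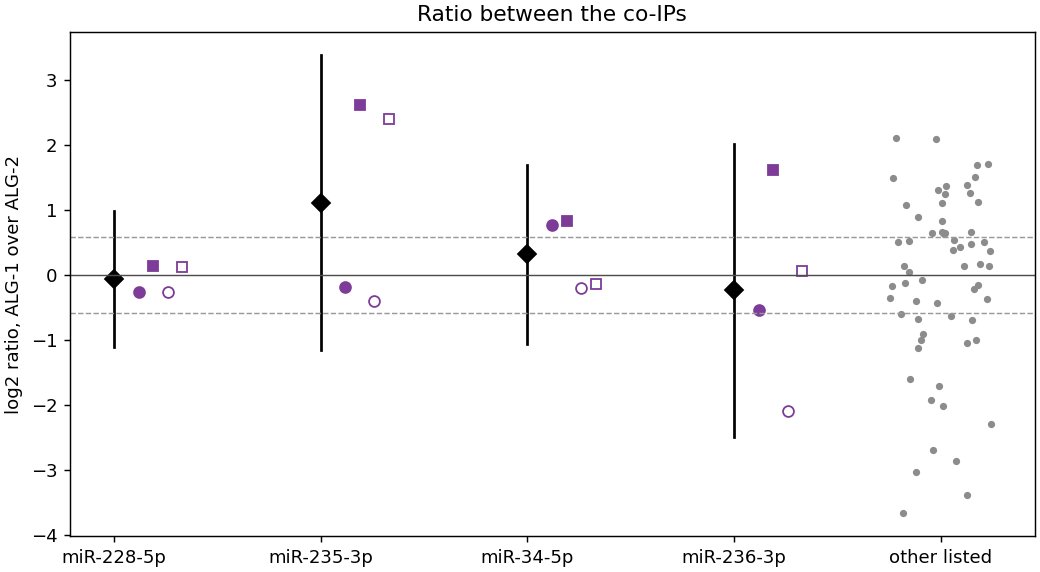
The log2 ratio of ALG-1 over ALG-2 for each of the 4 miRNAs, as the limma estimate (black diamond) with its 95% interval (black line), and as the 4 single ratios between libraries (purple; filled for ALG-1 library A, open for ALG-1 library B, circles for ALG-2 library A and squares for ALG-2 library B). Gray points are the limma estimates of the other 62 listed miRNAs, and the dashed lines mark 1.5-fold. Each of the 4 miRNAs has single ratios on both sides of 0, and the interval of each includes 0.

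The median log2 ratio of the 4 was 0.12, compared to 0.13 over all 66 miRNAs. Median-of-ratios scaling brought the median over all miRNAs to 0.08 and TMM scaling to 0.02. The estimates of the 4 ran from -0.24 to 1.11, inside the range of the whole table (-3.67 to 2.11). Ordered by the size of the log2 ratio, miR-235-3p was 24th of 66, miR-34-5p 54th, miR-236-3p 55th and miR-228-5p 65th. These ranks describe the size of the ratios only, since the intervals were wide.

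The 4 miRNAs differed in which co-IP carried their spread. The 2 ALG-1 libraries differed by 0.0092 on the log2 scale for miR-228-5p, the 2nd narrowest gap of the 66 miRNAs, and by 0.22 for miR-235-3p. By contrast, they differed by 0.98 for miR-34-5p and by 1.56 for miR-236-3p, the 7th and 3rd widest gaps. The median over all miRNAs was 0.34. Between the ALG-2 libraries the order was different. Here miR-34-5p had a gap of 0.060, the 3rd narrowest, and miR-228-5p one of 0.39, whereas miR-236-3p had 2.15 and miR-235-3p 2.80, the 10th and 4th widest. The median over all miRNAs was 0.90 in that co-IP. The sampling of reads alone would give an SD between 0.0027 and 0.030 for these gaps, and what else sets them was not tested.

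**Figure D3:**
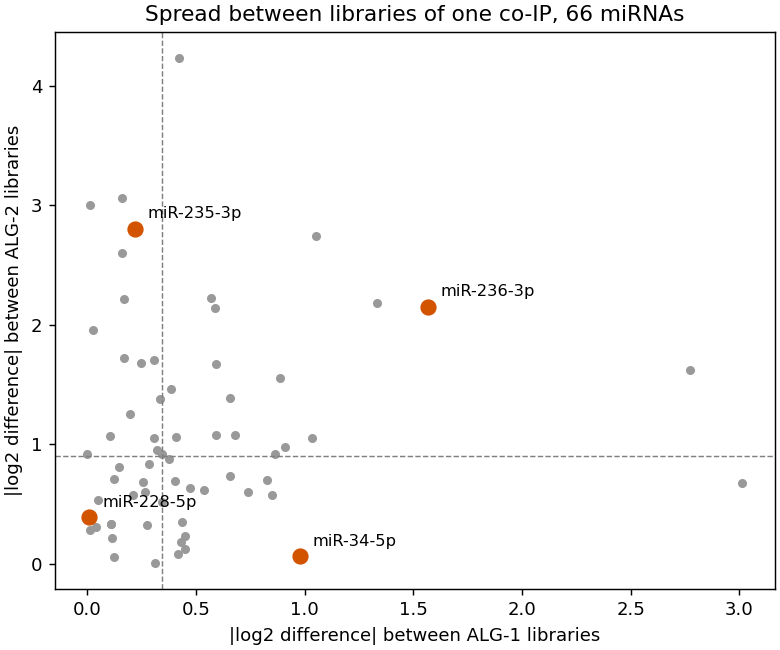
The absolute log2 difference between libraries A and B of the ALG-1 co-IP (horizontal) and of the ALG-2 co-IP (vertical), one point per listed miRNA, with the 4 conserved miRNAs in orange and dashed lines at the median of all 66 (0.34 and 0.90). miR-228-5p lies low on both axes, miR-34-5p is wide with ALG-1 only, miR-235-3p is wide with ALG-2 only, and miR-236-3p is wide with both.

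Only miR-236-3p of the 4 differed by more than 1 on the log2 scale between the libraries of both co-IPs, and 5 of the 66 miRNAs did so. The other 4 were miR-58a-3p, miR-59-3p, miR-239a-5p and miR-250-3p, which were named after their values were seen. Of these 5, miR-250-3p shared with miR-236-3p a higher value in library A of both co-IPs. This direction was not particular to them, since all 4 conserved miRNAs were higher in library A of both co-IPs. Of the 66 miRNAs, 43 were higher in ALG-1 library A than B, and 35 in ALG-2 library A than B. The column names begin with numbers that are consecutive for the A libraries and consecutive for the B libraries, but the meaning of these numbers is not given. Whether the A libraries and the B libraries were handled together is not given in the sources used here, and its part in the values of miR-236-3p was not tested.

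Ratios between 2 miRNAs of the same library do not depend on the total to which that library was scaled. miR-228-5p was 2.20, 2.54 and 2.31 times as high as miR-235-3p in ALG-1 libraries A and B and ALG-2 library A, but 12.3 times as high in ALG-2 library B. The fall of miR-235-3p in that library was therefore also seen against another member of the same library. miR-228-5p exceeded miR-34-5p by 8.59 to 17.5 times and miR-236-3p by 19.7 to 70.4 times. miR-235-3p and miR-34-5p were nearly level in ALG-2 library B, at a ratio of 1.13, while the ratio was 3.91 to 7.58 in the other 3. Of the 6 pairs among the 4 miRNAs, the co-IPs did not overlap for 1, the ratio of miR-235-3p over miR-236-3p. It was 10.9 and 27.7 with ALG-1 and 8.53 and 5.45 with ALG-2. Over all 2145 pairs of listed miRNAs, 55.2% did not overlap, so 1 of 6 is no more than in the table as a whole.

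The share of the 4 miRNAs together was 4.95% and 4.47% in the ALG-1 libraries and 5.65% and 3.28% in the ALG-2 libraries. The means were 4.71% ± 0.337 and 4.47% ± 1.68 (SD, n = 2 each), and the groups overlapped (log2 ratio of the sums 0.13, exact two-sided permutation p = 1). With 2 libraries against 2, this test cannot go below 0.333. miR-228-5p alone provided 62.0% to 68.1% of the sum in 3 libraries and 85.7% in ALG-2 library B. miR-235-3p provided 26.9% to 28.2% in those 3 libraries and 6.94% in ALG-2 library B.

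The miRNAs that followed each of the 4 most closely were sought by the distance between their log2(RPM + 1) values over the 4 libraries, after each miRNA was centred on its own mean. For miR-228-5p these were miR-83-3p (distance 0.36) and miR-87-3p (0.45), compared to a median distance of 1.38 to all other miRNAs. miR-83-3p, the worm relative of miR-29, had 394 and 532 RPM in the ALG-1 co-IP and 543 and 481 RPM in the ALG-2 co-IP, so its highest value was 1.38 times its lowest, at a much lower abundance than miR-228-5p. For miR-34-5p they were miR-2-3p (0.42) and miR-71-5p (0.64), with a median of 1.55. miR-71-5p, a miRNA that promotes longevity in worms, was the highest in ALG-1 library A like miR-34-5p, at 27329 RPM, but its lowest value was in ALG-2 library B, at 11844 RPM.

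For miR-235-3p the closest miRNAs were miR-56-3p (distance 0.68) and miR-786-3p (0.76), with a median of 2.57. Both shared the low value in ALG-2 library B. miR-56-3p, a member of the miR-51 family, had 8019 and 8940 RPM in the ALG-1 co-IP and 14799 and 2433 RPM in the ALG-2 co-IP, and miR-786-3p fell from 528 RPM in ALG-2 library A to 135 RPM in ALG-2 library B. For miR-236-3p they were miR-229-5p (0.70) and miR-77-3p (1.19), with a median of 2.18. miR-229-5p had 2738 and 1822 RPM in the ALG-1 co-IP and 6118 and 1384 RPM in the ALG-2 co-IP, so library A was again the higher one in both co-IPs. With 4 libraries these distances describe the values and are no measure of shared regulation. The closest miRNAs were picked by these same values, so the likeness described follows from that choice.

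In abundance, each of the 4 stood between miRNAs of similar mean level. miR-228-5p lay between miR-70-3p (34465 RPM, mean of 4 libraries) and miR-80-3p (28829 RPM). miR-235-3p lay between miR-246-3p (11834 RPM) and miR-61-3p (10116 RPM). miR-34-5p was found between miR-36-3p (2755 RPM) and miR-73-3p (2195 RPM), and miR-236-3p between miR-86-5p (1010 RPM) and miR-63-3p (910 RPM). In all 8 cases the ranges over the 4 libraries overlapped. Since the neighbours were picked by their means in these same libraries, such overlap was likely beforehand and is no result about the 4.

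Other worm miRNAs with families outside nematodes were used as a comparison. A fixed list of 26 such miRNAs was used, which is not a full account of them. The counts and the median below depend on which miRNAs it holds. Of the 26, 20 were listed in the table, and the 6 others, miR-1-3p, miR-43-3p, miR-79-3p, miR-124-3p, miR-233-3p and miR-234-3p, were not analysed here. All 4 ratios exceeded 1.5 toward ALG-1 for 4 of the 20 and toward ALG-2 for 0, next to 13.6% and 16.7% of the whole table. By limma 0 of the 20 passed in either direction after adjustment, and 3 and 0 had a p-value below 0.05 before it. The 4 were let-7-5p, miR-48-5p, lin-4-5p and miR-237-5p, members of the let-7 and lin-4 families that time larval development. Their lowest ratios were 1.57 (let-7-5p), 1.87 (miR-48-5p), 2.10 (lin-4-5p) and 2.09 (miR-237-5p). The lowest ratio of let-7-5p fell below 1.5 after median-of-ratios (1.48) or TMM scaling (1.40), and without the miR-35 family, an alternative chosen after seeing the data, it was 1.20, while that of miR-48-5p was 1.44 and so also below 1.5. The median log2 ratio of the 20 was 0.52, compared to 0.13 over all 66.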

How the data were processed

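The deposited values are RPM: the authors removed adapters (the submitters' processing notes name cutadapt), mapped reads to the WS261 genome with miRDeep2, quantified mature miRNAs on miRBase annotations and divided by the reads of the library, per 1000000. The versions of these tools are not given in the sources used here. The depth of each of the 4 columns was taken as the smallest library total found for which all 66 values came out as whole reads (tolerance 1e-06 reads). Multiples of that total would give whole reads as well, so the read numbers are inferred. No count model was fitted. Column names state the Argonaute and a leading number of unstated meaning, but no replicate number.

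All 66 miRNAs were fitted with limma 3.58.1 (R 4.3.3) on log2(RPM + 1), with a variance trend and no block, two-sided, with Benjamini-Hochberg adjustment. Ratios on this scale are ALG-1 over ALG-2. The fit was tested on simulated data with the same spread in both co-IPs and with added changes larger than the estimates of the 4. That test does not show how the fit performs at the uneven spread and smaller ratios found here. Medians, ranks and distances were computed with Python 3.11.15, pandas 2.3.3 and scipy 1.17.1. Median-of-ratios and TMM factors were computed over the 66 miRNAs, and other pseudocounts, filters, blocks and left-out libraries were tried.

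The miRNAs named were the 4, their neighbours in abundance, the 2 closest in profile to each, and conserved miRNAs past a criterion. The let-7 family members of the conserved list that did not pass were named beside those that did. The 4 miRNAs and the lists were chosen with earlier results of these data known. The rule also asked for miRNAs that share a seed with the 4, which was not applied because mature sequences were not used here. Locus positions come from RefSeq (WBcel235).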

Additional observations from a re-analysis of the deposited data

How the results depend on the processing

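None of the 4 conserved miRNAs passed the limma threshold under any alternative run, and the lowest adjusted p was 0.0672 (miR-235-3p without ALG-2 library A). With all libraries in use each kept its direction under every setting. The log2 ratios then ranged from 0.043 to 0.31 (miR-34-5p), -0.34 to -0.07 (miR-228-5p), 0.84 to 1.11 (miR-235-3p) and -0.51 to -0.24 (miR-236-3p), and the lowest value of each came from leaving out the miR-35 family and rescaling, an alternative chosen after seeing the data. The blocks, the missing variance trend and the minimum cannot change these ratios. With a library left out, limma pooled the spread and a lone library was assumed to vary like the other group. The ratios then ranged from -0.18 to 0.80 (miR-34-5p), -0.26 to 0.12 (miR-228-5p), -0.29 to 2.51 (miR-235-3p) and -1.32 to 0.83 (miR-236-3p), so each of the 4 reversed without some library. For miR-228-5p that was ALG-2 library A (0.12).

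The limma counts over the table (0 with ALG-1, 1 with ALG-2) became 4 with ALG-2 after median-of-ratios or TMM scaling, 3 without the variance trend, 0 without the miR-35 family, and 0 to 4 with a library left out, when the count with ALG-1 stayed at 0. The replicate block with crossed pairs gave 2 and 5, and with pairs in column order 0 and 1. Taken as departures from their group mean, libraries paired in column order had a correlation of -0.21 over the 66 miRNAs, and the sample titles do not tie columns to replicate numbers. The enrichment counts (9 and 11) became 17 and 22 by the ratio of group means and 5 with ALG-1 at a minimum of 4000 summed RPM, which miR-236-3p did not reach. They ranged from 12 to 18 and from 11 to 18 with a library left out. Of the 4, miR-34-5p then passed toward ALG-1 without ALG-1 library B, and miR-235-3p without ALG-2 library A. The log2 ratio of the summed 4 became 0.76 without miR-228-5p and ranged from -0.27 to 0.52 with a library left out. The cause of these changes was not tested. Among the values of the 4 miRNAs the largest error from the sampling of reads was 1.90%.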
